A study of Mus musculus with 26 samples.

Results

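The comparison described here asked which genes differed between C2C12 myoblasts transfected with siSMYD3#1 and C2C12 myoblasts transfected with siCtrl at 0 h, when differentiation was induced. It rests on 6 of the 26 RNA-Seq libraries of the series, 3 labelled siSMYD3#1 and 3 labelled siCtrl. C2C12 is an established mouse myoblast line, here without a genetic change. The cells had received their siRNA (LipoRNAiMAX) 24 h earlier and were confluent at harvest. Per the study's methods, a second transfection was made when differentiation was induced, so cells at 24 h had received that one too. siCtrl is a control duplex, and siSMYD3#1 and siSMYD3#2 are duplexes against different stretches of the Smyd3 mRNA. In each group 1 library came from RNA extracted with TRIzol and 2 from RNA extracted with the NucleoSpin kit. The study's sample sheet gives the TRIzol cells an earlier passage than the NucleoSpin cells, so extraction and passage cannot be told apart. 3 siSMYD3#2 libraries at 0 h and 6 libraries of siCtrl and siSMYD3#1 cells at 24 h of differentiation are used below for comparison.

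SMYD3 is a lysine methyltransferase of the SET and MYND domain family, which methylates histones and other proteins. Myoblasts are the dividing precursors of skeletal muscle. They carry the transcription factors MyoD and Myf5, and on withdrawal of growth factors they leave the cell cycle, switch on myogenin and the contractile genes and fuse into myotubes. A small interfering RNA acts when 1 strand of the duplex, the guide, is loaded into an Argonaute protein and the loaded complex cuts a fully complementary mRNA. The other strand, called sense here because it has the sequence of the mRNA, can also be loaded. A loaded strand can lower other mRNAs that pair in their 3′ UTR with its bases 2 to 8 only, the seed, as a microRNA does.

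The siRNA strands are shown because the changes below are described against them. They are written 5′ to 3′ without overhangs, with the seed of each strand in capitals. Both strands come from the study's oligonucleotide list, and each guide is the reverse complement of its sense strand.

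siSMYD3#1 guide: gUUGGGGUcacagcuguga

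siSMYD3#1 sense: uCACAGCUgugaccccaac

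siSMYD3#2 guide: uCAAAUCUucaaucaggcu

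siSMYD3#2 sense: aGCCUGAUugaagauuuga

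siCtrl guide: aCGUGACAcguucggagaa

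siCtrl sense: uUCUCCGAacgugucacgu

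The sense strand of siSMYD3#1 matched the coding part of transcript Smyd3-204 over its whole 19 bases from transcript position 698, that of siSMYD3#2 matched it from position 1308, and that of siCtrl matched none of the annotated Smyd3 transcripts. The 7 letters CACAGCU that form the seed of the siSMYD3#1 sense strand also stand at bases 9 to 15 of its own guide.

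Between 19381957 and 60398170 reads were counted on genes in the 6 libraries, and 19891 to 23197 genes had at least 1 count. The deepest library was a siCtrl NucleoSpin library and the shallowest a siSMYD3#1 NucleoSpin library, and the 10 most abundant genes took 5.1% to 6.55% of the counts. Levels are in CPM, the count of a gene divided by the TMM-scaled library size, always given in the order TRIzol, first NucleoSpin and second NucleoSpin library. Changes are log2 fold changes of siSMYD3#1 over siCtrl from edgeR's quasi-likelihood test with extraction method in the model. Each has a standard error (SE) and a p-value adjusted over the 15820 genes tested. A gene was called raised or lowered at an adjusted p under 0.01. The study's methods call the replicates biological, but neither they nor the labels say that these came from separate cultures, so the p-values measure only the spread between these samples. The TRIzol libraries stood apart in several muscle genes. Smyd1, a muscle-specific relative of Smyd3, lay at 0.184 CPM in the siCtrl TRIzol library against 15.6 and 15.7 CPM in the NucleoSpin libraries, and at 0.169 against 15.1 and 12.7 CPM with siSMYD3#1. Of the markers of other cell types, all 7 endothelial markers stayed under 1 CPM in all 6 libraries. So did 6 of the 8 macrophage markers, of which Adgre1, Itgam and Tyrobp were at 0 in all 6. The 8 macrophage markers summed to 3.63 to 4.85 CPM with siCtrl and 4.36 to 5.68 CPM with siSMYD3#1. The summed level of the 11 myoblast markers was 733 to 2320 CPM with siCtrl and 867 to 2210 CPM with siSMYD3#1, and that of the 10 myotube markers 11.1 to 52.0 and 11.1 to 32.3 CPM. Markers of smooth muscle (2020 to 2550 and 2180 to 3220 CPM), fat (94.7 to 114 and 106 to 119 CPM), bone and cartilage (1660 to 1960 and 1710 to 1790 CPM) and nerve (58.9 to 306 and 58.8 to 262 CPM) overlapped between the groups. So did the 13 mitochondrially encoded genes (14200 to 36700 and 14000 to 29900 CPM). The 9 lists of cell type markers and the mitochondrially encoded genes held 0 genes past the threshold in edgeR. DESeq2 called 3 of the 11 myoblast markers, against 523 of all 15820 genes tested. Of the 6 replication-dependent histone genes tested, whose mRNAs lack a poly(A) tail, 1 was lowered (16.7% called against 1.43% of all genes). It was Hist1h1c, which is named here after its values were seen.

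Smyd3 itself (GRCm38 chromosome 1 from 178951960 to 179518041, minus strand, ENSMUSG00000055067) comes before the rest. It was measured at 21.6, 20.5 and 19.5 CPM with siCtrl and at 19, 19.3 and 16.9 CPM with siSMYD3#1. The 2 groups did not overlap, but the log2 fold change was -0.16 (SE 0.16, n = 3 per group, edgeR adjusted p = 0.785) and did not pass the threshold. Leaving out any 1 library kept it between -0.24 and -0.10. With siSMYD3#2, by contrast, Smyd3 stood at 6.37, 7.56 and 8.93 CPM, and the 2 siRNAs differed in it by 1.26 on the log2 scale (SE 0.17, n = 3 per group, edgeR adjusted p = 0.000236). Since the counts of the targeted gene do not separate the groups past the threshold, the 3 treated libraries are the libraries labelled siSMYD3#1 throughout, and directions below are directions between labels. The counts do not bear on the SMYD3 protein. The study also measured Smyd3 mRNA by qPCR and the protein by western blot in cells given Smyd3 siRNA, and those measurements were not examined here. The other 4 measured members of the family did not pass the threshold either, with Smyd1 at -0.18, Smyd2 at 0.11, Smyd4 at -0.09 and Smyd5 at -0.16 (edgeR adjusted p from 0.536 to 0.964). In Smyd2, 30.0% of the exon bases overlap an exon on the opposite strand. Whether the counting used strand is not given in the sources used here.

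The libraries labelled siSMYD3#1 differed from siCtrl in 226 of the 15820 genes tested (1.43%), of which 91 were raised (0.575%) and 135 lowered (0.853%). The changes were small in most of these genes. 24 of the lowered and 11 of the raised genes changed at least 2-fold, and 45 and 43 changed by less than 1.5-fold. The median log2 fold change was -0.66 (from -3.14 to -0.39) among the lowered and 0.61 (from 0.35 to 1.41) among the raised genes. All but 1 gene in each direction were protein coding. At an unadjusted p under 0.05 there were 2196 genes (13.9%), 1085 of them higher (6.86%) and 1111 lower (7.02%). In 1824 genes (11.5%) the levels of the 2 groups did not overlap, among them 113 of the 135 lowered and 78 of the 91 raised genes. For the lowered genes the median log2 ratio of each siSMYD3#1 library to its siCtrl counterpart was -0.59 for TRIzol and -0.72 and -0.66 for NucleoSpin, and for the raised genes it was 0.59, 0.57 and 0.61. These genes were called from the same libraries, so the likeness of these medians is partly set by the calls. The change was smallest in TRIzol in 78 of the 135 lowered and 29 of the 91 raised genes. The number of calls depended on the libraries and on the model. It was 462 in the NucleoSpin libraries alone and 15 without extraction method in the model. Leaving out the siCtrl libraries in turn gave 116, 88 and 108 calls and leaving out the siSMYD3#1 libraries 148, 71 and 68.

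**Figure D1:**
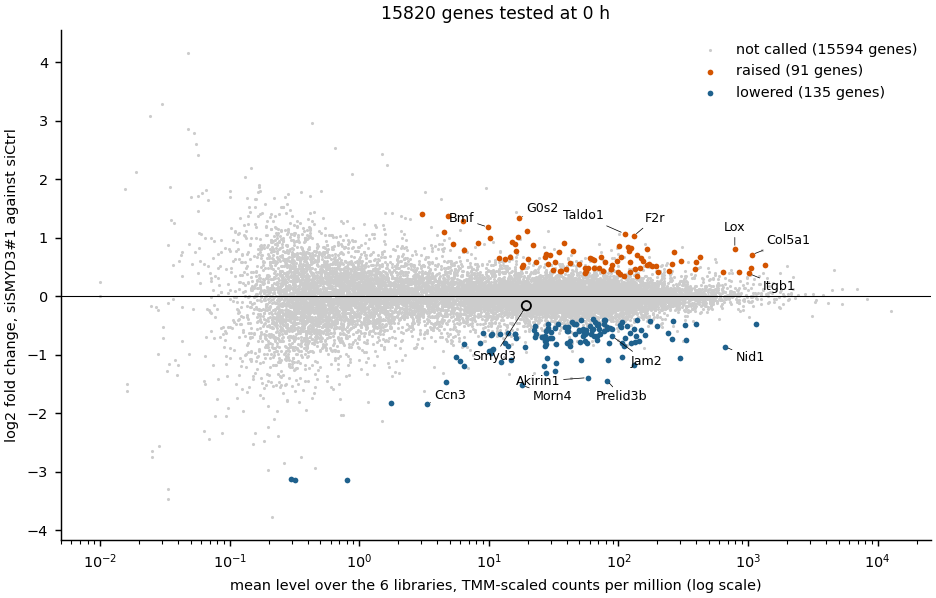
Each point is 1 of the 15820 genes tested, with its mean level over the 6 libraries at 0 h on the x axis (TMM-scaled CPM, log scale) and its log2 fold change of siSMYD3#1 over siCtrl on the y axis. The 91 raised genes (orange) and 135 lowered genes (blue) lie mostly within a log2 fold change of 1 on either side, while Smyd3 (open circle) lies at -0.16 among the genes not called.

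The 12 largest falls among genes with a mean of at least 100 counts are described first. They were chosen so that all siSMYD3#1 libraries lay below the siCtrl libraries of the same extraction. The rises had to lie above them, and called genes named by rule from the lists below met the same condition. Separation within an extraction is therefore a condition of naming and not a result. Morn4, which encodes a protein of MORN repeats, fell from 19, 29.3 and 32.0 CPM with siCtrl to 8.22, 8.95 and 10.3 CPM with siSMYD3#1 (log2 fold change -1.52, SE 0.14, n = 3 per group, edgeR adjusted p = 6.95e-06). Every siSMYD3#1 library lay far below every siCtrl library, while the siSMYD3#2 libraries, at 16.6, 27.3 and 30.5 CPM, lay slightly below the controls of their extraction (-0.12, edgeR adjusted p = 0.872). Prelid3b, of a family of proteins that carry phospholipids inside mitochondria, was at 116, 124 and 118 CPM with siCtrl and at 44.8, 39.4 and 48.2 CPM with siSMYD3#1 (-1.44, SE 0.21, n = 3 per group, edgeR adjusted p = 0.00103). Akirin1, a nuclear protein that acts in transcription and was described in myoblasts under the name mighty, was at 49.5, 113 and 90.6 CPM with siCtrl and at 22, 36.2 and 36.3 CPM with siSMYD3#1 (-1.39, SE 0.14, n = 3 per group, edgeR adjusted p = 8.58e-06). For both genes the groups did not overlap, and the TRIzol libraries were the lowest for Akirin1 in both groups. Arhgap19, a GTPase-activating protein for RhoA that acts in cell division, fell from 35.4, 52.8 and 48.6 CPM to 16, 20.8 and 18.8 CPM (-1.28, SE 0.11, n = 3 per group, edgeR adjusted p = 3.98e-06), again without overlap.

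Ppif, which encodes cyclophilin D of the mitochondrial matrix, was lowered from 46.8, 34.2 and 35.4 CPM to 24.1, 12.4 and 11.7 CPM (-1.31, SE 0.19, n = 3 per group, edgeR adjusted p = 0.000652). Wrb, part of the receptor that inserts tail-anchored proteins into the endoplasmic reticulum, fell from 44.4, 31.5 and 33.5 CPM to 23.3, 11.4 and 14.6 CPM (-1.19, edgeR adjusted p = 0.00271). The membrane proteolipid gene Plp2 fell from 185, 151 and 211 CPM to 91.4, 73.1 and 78.4 CPM (-1.17, edgeR adjusted p = 1.78e-05). In all of them the groups were apart. Exons on the opposite strand overlap 18.3%, 11.6% and 18.4% of their exon bases. Fam131b was at 48.3, 41.3 and 46.0 CPM with siCtrl and at 19.5, 19.5 and 22.5 CPM with siSMYD3#1 (-1.14, SE 0.12, n = 3 per group, edgeR adjusted p = 1.51e-05), with 10.8% of its exon bases shared on the opposite strand. Gata3, a zinc finger transcription factor, was lowered from 7.10, 8.67 and 8.93 CPM to 3.82, 3.74 and 3.83 CPM (-1.10, edgeR adjusted p = 0.00121). The siSMYD3#1 libraries differed little among themselves for both genes and all lay below the controls.

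The remaining 3 of the 12 largest falls were genes whose level depended strongly on the extraction and passage. Ccn3, a secreted matricellular protein also called Nov that restrains myogenic differentiation, was at 0.626, 8.49 and 6.64 CPM with siCtrl and at 0.237, 2.22 and 1.68 CPM with siSMYD3#1 (-1.84, SE 0.26, n = 3 per group, edgeR adjusted p = 0.000349). Its level was lower with siSMYD3#1 within each extraction, while the siCtrl TRIzol library lay below both siSMYD3#1 NucleoSpin libraries, so the groups overlapped. The same held for 2 other genes. Nckap1l, a subunit of the WAVE actin-regulating complex best known from blood cells, was at 0.626, 9.51 and 10.8 against 0.406, 3.62 and 2.99 CPM (-1.47, edgeR adjusted p = 0.000955). Nap1l2, a histone chaperone of the NAP1 family, was at 0.884, 13.6 and 12.6 against 0.473, 5.68 and 5.31 CPM (-1.19, edgeR adjusted p = 0.00271). In the NucleoSpin libraries alone the 3 values were -1.92, -1.61 and -1.25. The calls of Prelid3b, Gata3, Nckap1l, Nap1l2 and Wrb were lost when certain single libraries were left out (edgeR adjusted p at most 0.0298), and those of the other 7 falls were not.

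The 12 largest rises were chosen by the same rule. Taldo1, transaldolase of the pentose phosphate pathway, rose from 66.0, 70.2 and 79.3 CPM with siCtrl to 139, 156 and 158 CPM with siSMYD3#1 (log2 fold change 1.07, SE 0.10, n = 3 per group, edgeR adjusted p = 6.98e-06). F2r, the thrombin receptor PAR1, rose from 96.5, 78.2 and 83.9 CPM to 194, 168 and 167 CPM (1.03, SE 0.10, n = 3 per group, edgeR adjusted p = 6.98e-06). In both genes the lowest siSMYD3#1 library was far above the highest siCtrl library. Both were as high with siSMYD3#2, at 129, 164 and 186 CPM for Taldo1 and 232, 195 and 184 CPM for F2r. G0s2, an inhibitor of the triglyceride lipase ATGL, rose from 6.15, 11.7 and 11.3 CPM to 15.7, 30.7 and 27.3 CPM (1.34, SE 0.14, n = 3 per group, edgeR adjusted p = 2.01e-05). Bmf, a BH3-only protein that promotes apoptosis, rose from 4.34, 7.24 and 6.50 CPM to 12.2, 14.2 and 14.6 CPM (1.18, SE 0.16, n = 3 per group, edgeR adjusted p = 0.000264). These groups did not overlap either. Here the siSMYD3#2 libraries stayed near siCtrl, at 5.94, 12.5 and 12.8 CPM for G0s2 and 3.86, 4.99 and 5.73 CPM for Bmf. The siRNAs differed by 1.25 and 1.49 on the log2 scale (edgeR adjusted p = 8.98e-05 and 6.04e-05).

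Crabp2, a carrier of retinoic acid to its nuclear receptors, was at 5.74, 11.9 and 13.7 CPM with siCtrl and at 13.2, 21.7 and 24.5 CPM with siSMYD3#1 (0.93, SE 0.14, n = 3 per group, edgeR adjusted p = 0.000864). It was higher within each extraction, although the siSMYD3#1 TRIzol library lay below the highest control. Rgcc, a regulator of the cell cycle, was at 0.773, 3.11 and 4.22 against 3.31, 8.83 and 8.56 CPM (1.37, SE 0.26, n = 3 per group, edgeR adjusted p = 0.00435). It was also higher within each extraction and with the same kind of overlap. Cnnm2, a membrane protein of magnesium handling, rose from 4.75, 8.63 and 7.03 CPM to 10, 16 and 14.7 CPM (1.00, edgeR adjusted p = 0.000189). The 5 others were Oscp1 (1.29), Zc3hav1l (1.11), a relative of the antiviral zinc finger protein ZAP, Trac (1.10), the constant segment of the T cell receptor alpha chain, Ctxn1 (1.01), a small membrane protein, and Plekho2 (0.91), a pleckstrin homology domain protein. Of these 5, the groups overlapped only in Trac. The calls of Rgcc, Oscp1, Zc3hav1l, Trac and Crabp2 were lost when certain single libraries were left out (edgeR adjusted p at most 0.0354), and those of the other 7 rises were not.

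**Figure D2:**
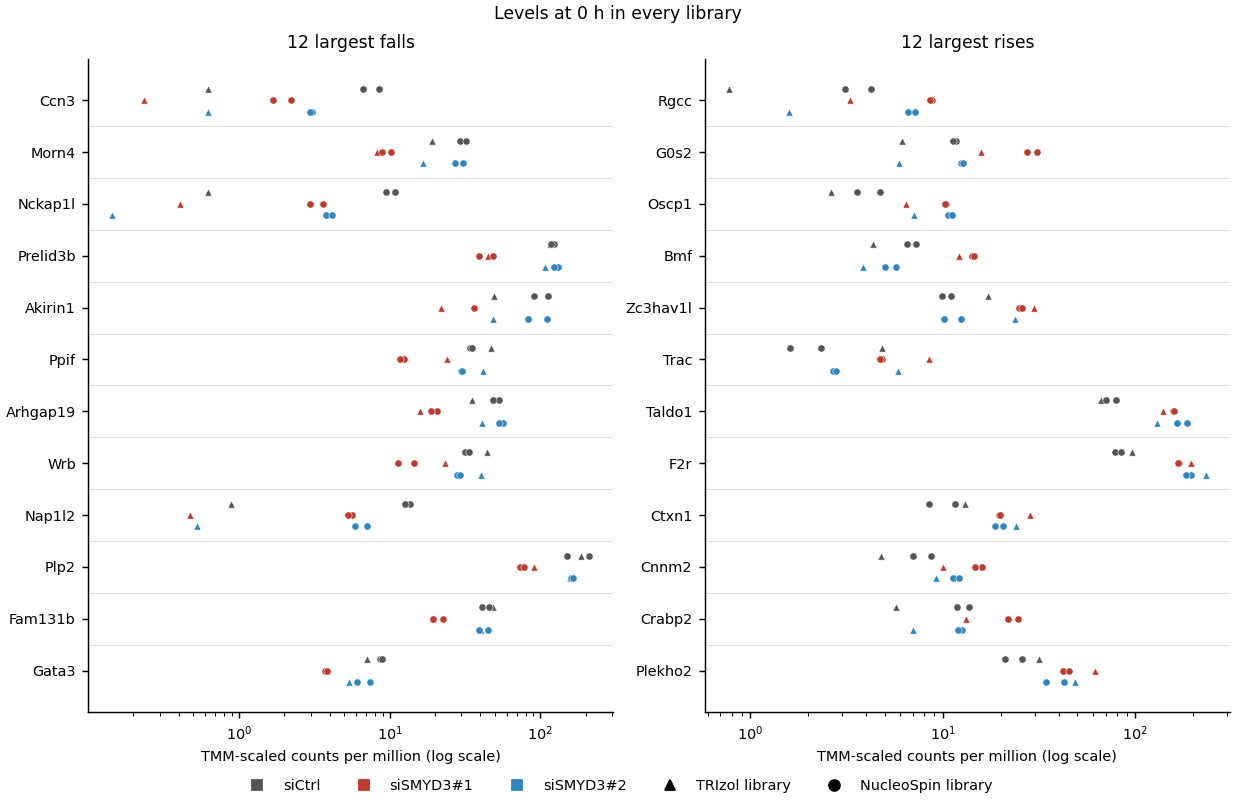
Levels at 0 h (TMM-scaled CPM, log scale) of the 12 largest falls and the 12 largest rises, with 1 symbol per library, triangles for TRIzol and circles for NucleoSpin, and siCtrl in grey, siSMYD3#1 in red and siSMYD3#2 in blue. Red symbols lie apart from grey ones of the same shape in every gene because the genes were chosen so. The blue symbols lie with the grey for genes such as Morn4 or G0s2 and with the red for genes such as Taldo1 or F2r.

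The changed genes were then read by function, over 26 lists of genes for pathways and structures. 11 lists held at least 1 gene past the threshold and 15 held none, and no list had more than 3. Most collagen chains lay above the controls. Of 23 tested, 20 had a log2 fold change above 0, 2 were raised and 0 lowered (8.7% called against 1.43% of all genes). At an unadjusted p under 0.05, 12 were higher and 0 lower, and the median log2 fold change was 0.39 against 0.00 over all genes. Col5a1 and Col5a2, the chains of fibril-regulating type V collagen, were the raised pair. Col5a1 was at 1050, 703 and 694 CPM with siCtrl and at 1630, 1120 and 1230 CPM with siSMYD3#1 (0.71, SE 0.12, n = 3 per group, edgeR adjusted p = 0.0023). Col5a2 was at 1340, 966 and 1000 against 1860, 1430 and 1500 CPM (0.54, SE 0.10, n = 3 per group, edgeR adjusted p = 0.00524). The groups did not overlap in either gene, and the TRIzol libraries were the highest. The type I chains, named here after their values were seen, missed the threshold, with Col1a2 at 0.52 (edgeR adjusted p = 0.0129) and Col1a1 at 0.84 with a wide SE of 0.27 (edgeR adjusted p = 0.132).

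Among 51 matrix glycoproteins, proteoglycans and crosslinkers 1 was raised and 1 lowered (3.92% called against 1.43% of all genes), with a median of 0.15. The raised gene was Lox, lysyl oxidase, which crosslinks collagen and elastin (0.81, SE 0.13, n = 3 per group, edgeR adjusted p = 0.00174). It was at 930, 432 and 408 CPM with siCtrl and at 1390, 758 and 827 CPM with siSMYD3#1, higher within each extraction, with the siCtrl TRIzol library above both siSMYD3#1 NucleoSpin libraries. The lowered gene was Nid1, the basement membrane protein nidogen 1, which fell from 574, 968 and 1010 CPM to 307, 556 and 551 CPM (-0.86, SE 0.11, n = 3 per group, edgeR adjusted p = 0.000189). Its groups did not overlap, and its direction was opposite to that of the collagens. Of 31 metalloproteinases, ADAMTS proteases and TIMPs, 2 were raised and 0 lowered (6.45% called against 1.43%), with a median of 0.22. Mmp14, the membrane-bound matrix metalloproteinase, went from 384, 281 and 311 CPM to 651, 448 and 476 CPM (0.68, SE 0.12, n = 3 per group, edgeR adjusted p = 0.00226). The other, Adamts12 (1.41, edgeR adjusted p = 0.00224), had a mean below 100 counts and is named here after its values were seen. The summed level of the 13 fibroblast and tendon markers was 227 to 252 CPM with siCtrl and 294 to 348 CPM with siSMYD3#1, with Tcf21 and Thy1 at 0 in all 6 libraries. Of the 8 tested, 6 lay above 0 and 0 were called. Fmod, named here after its values were seen, went from a mean of 69.3 to 125 CPM (0.83, SE 0.52, edgeR adjusted p = 0.57), so the sum leans on this gene. Dcn lay at -0.35. Fmod, Dcn, Lum and Col14a1 also belong to the matrix or collagen lists, so the sum is not independent of them. The part of these markers in the matrix result was not tested, and in such bulk RNA more cells of a type and more RNA per cell cannot be told apart.

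In adhesion and cell fusion the called genes went both ways. Of 18 genes of myoblast fusion and recognition, 1 was raised and 2 lowered (16.7% called against 1.43% of all genes), with a median of 0.03. The lowered genes were Ccn3, described above, and Jam2, a junctional adhesion molecule, at 87.0, 120 and 122 CPM with siCtrl against 50.3, 77.8 and 78.0 CPM (-0.68, SE 0.12, n = 3 per group, edgeR adjusted p = 0.00262). The raised gene was Itgb1, the integrin beta 1 chain (0.39, SE 0.08, n = 3 per group, edgeR adjusted p = 0.0094). Its groups were apart, but its call and that of Jam2 were lost when any 1 library was left out. Of 34 integrins, cadherins and adhesion receptors, 1 was raised and 1 lowered (5.88% called). Gpc1, the proteoglycan glypican 1, was raised (0.49, edgeR adjusted p = 0.00453, with 18.9% of its exon bases shared on the opposite strand). Alcam, an immunoglobulin-type adhesion molecule, was lowered from 90.7, 86.1 and 74.9 CPM to 50.1, 51.0 and 54.8 CPM (-0.68, edgeR adjusted p = 0.00229). The median of that list was 0.10.

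Signalling lists held few calls. Of 31 genes of TGF-beta and BMP signalling, 2 were raised and 0 lowered (6.45% called against 1.43% of all genes), with a median of 0.15. With 1 to 3 called genes in a list, these shares turn on single genes. Pmepa1, a target and feedback inhibitor of TGF-beta signalling, was at 205, 84.1 and 86.1 CPM with siCtrl and at 287, 154 and 177 CPM with siSMYD3#1 (0.81, SE 0.11, n = 3 per group, edgeR adjusted p = 0.000351), higher within each extraction. The ligand gene Tgfb3 was at 50.2, 40 and 47.3 against 73.2, 57.8 and 61.2 CPM (0.48, SE 0.08, n = 3 per group, edgeR adjusted p = 0.0017, with 12.4% of its exon bases shared on the opposite strand). The groups overlapped for Pmepa1 and not for Tgfb3. Single members were raised in 4 further lists (2.78% to 3.33% called). They were the receptor Fzd2 of 34 Wnt pathway genes (0.48), the interleukin 1 receptor Il1r1 of 33 chemokines, cytokines and receptors (0.47), the protein disulfide isomerase Pdia4 of 36 genes of ER stress (0.43) and the actin-binding caldesmon gene Cald1 of 30 SRF, MRTF and YAP targets (0.42). All of these had an edgeR adjusted p between 0.00229 and 0.00738. Of 12 genes of the RNA interference machinery, 1 was lowered (8.33% called against 1.43% of all genes). It was Tnrc6a, the GW182 protein that links Argonaute to mRNA decay, which went from 176, 118 and 115 CPM to 116, 85.1 and 85.0 CPM (-0.51, SE 0.09, n = 3 per group, edgeR adjusted p = 0.0023). The calls of Nid1 and Pmepa1 held whichever library was left out, and those of the other 14 genes named by these lists were each lost in at least 3 of the 6 such fits (edgeR adjusted p at most 0.0806). Among the 40 genes of IGF, FGF and MET signalling 0 were called by edgeR and 0 by DESeq2, with 7 higher and 4 lower at an unadjusted p under 0.05.

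The myogenic program showed few differences at 0 h. Of 15 myogenic transcription factors 0 passed the threshold in edgeR, at a median of -0.24. At an unadjusted p under 0.05, 2 were lower and 0 higher. The gene nearest the threshold was Myf5, at 82.2, 90.9 and 83.4 CPM with siCtrl and 58.9, 61.3 and 65.2 CPM with siSMYD3#1, where the groups did not overlap (-0.47, SE 0.11, n = 3 per group, edgeR adjusted p = 0.0168). It was the 1 factor that passed in DESeq2 and in the NucleoSpin libraries alone (-0.46). Myod1 was at 6.41, 27.4 and 31.4 CPM with siCtrl and at 4.67, 24.9 and 25.4 CPM with siSMYD3#1 (-0.28, SE 0.28, n = 3 per group, edgeR adjusted p = 0.786). The TRIzol and NucleoSpin libraries differed far more than the groups. Myog, which encodes myogenin, was at 0.135 to 1.87 CPM in all 6 libraries, and Mef2d, Eya3 and Eya4 lay within 0.10 of no change on the log2 scale. Of 13 inhibitors of myogenic factors 0 passed in edgeR and 1 in DESeq2, against 523 of all 15820 genes in DESeq2. At an unadjusted p under 0.05, 2 of the 13 were higher and 2 lower, against 6.86% and 7.02% of all genes. The repressor Msc, named here after its values were seen, was nearest (-1.23, edgeR adjusted p = 0.0191). Of 70 sarcomere and contraction genes 0 passed in edgeR and in DESeq2 (8 higher and 0 lower at an unadjusted p under 0.05, median 0.10). At 24 h, by contrast, 35 of the same 70 genes were lowered and 0 raised, against 2.94% and 2.91% of all genes.

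Genes of cell division held no calls in edgeR. Of 50 genes of DNA replication 0 passed in edgeR and 2 in DESeq2, against 523 of all 15820 genes in DESeq2. At an unadjusted p under 0.05, 2 of the 50 were higher and 3 lower, against 6.86% and 7.02% of all genes. The log2 fold changes of the 50 ran from -0.89 to 0.24 around a median of -0.07, and 9 lay above 0. The maintenance DNA methyltransferase gene Dnmt1 was nearest the threshold (-0.52, edgeR adjusted p = 0.0128). The lowest value was that of Mcm3, a subunit of the replicative helicase, at 218, 190 and 207 CPM with siCtrl and 121, 106 and 105 CPM with siSMYD3#1 (-0.89, SE 0.23, n = 3 per group, edgeR adjusted p = 0.0444), where the groups did not overlap. Dnmt1 and Mcm3 are named here after their values were seen. Of 57 mitosis genes 0 passed in either tool (median -0.09, from -0.30 to 0.29), and 0 were higher and 3 lower at an unadjusted p under 0.05. Interferon-stimulated and RNA-sensing genes, a known response to double-stranded RNA, gave 0 calls in either tool among 32 tested, 0 at an unadjusted p under 0.05 and a median of 0.01. The 50 cytosolic ribosomal protein genes lay between -0.17 and 0.15, also with 0 calls in either tool and 0 at an unadjusted p under 0.05. Lists for p53 targets and apoptosis regulators (30 tested), cyclins and CDK inhibitors (18), Notch (13), immediate early genes (28), cholesterol and fatty acid synthesis (36), and glycolysis, glycogen and creatine (31) held 0 edgeR calls each. At an unadjusted p under 0.05 they held 0 to 2 genes in each direction, and DESeq2 called 1 Notch gene and 1 lipid synthesis gene among them.

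**Figure D3:**
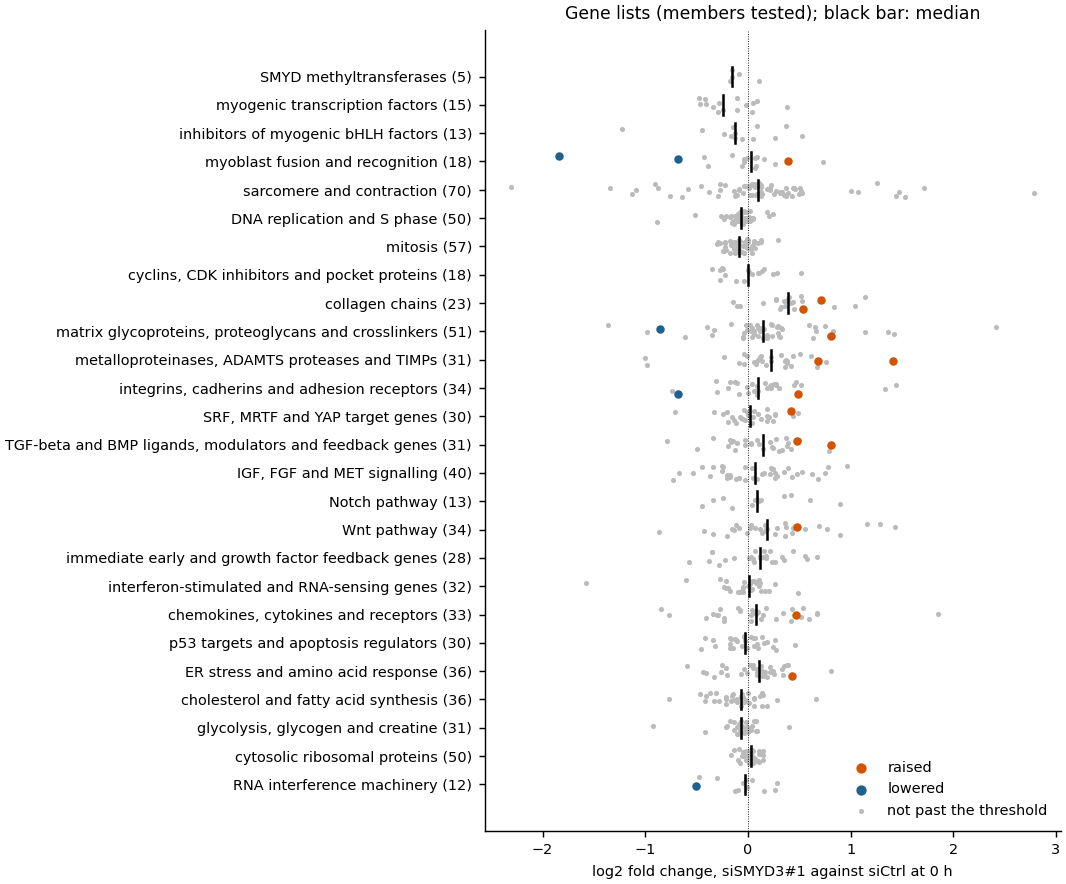
Each row is 1 of the 26 gene lists, with the number of members tested in brackets, and each point is 1 gene by its log2 fold change of siSMYD3#1 over siCtrl at 0 h (x axis), raised genes in orange, lowered genes in blue and all others in grey. The black bar is the list's median, which is highest for the collagen chains at 0.39, and the lists for myogenic factors, sarcomere, replication, mitosis and ribosomal proteins hold no coloured point.

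The genes changed at 0 h were followed to 24 h of differentiation, in libraries that share no sample with those at 0 h. The second transfection lay between these time points, so its effect and that of time cannot be told apart. At 24 h, 461 genes were raised (2.91%) and 465 lowered (2.94%) by the same siRNA. Of the 135 genes lowered at 0 h, 85 were lowered at 24 h (63.0%) and 133 kept their sign, at a median of -0.52. Of the 91 raised at 0 h, 70 were raised at 24 h (76.9%) and 88 kept their sign, at a median of 0.58. In both lists 0 genes were called in the opposite direction. The effect itself differed between 24 h and 0 h in 34 genes (0.215%, edgeR interaction test), or in 17 to 49 with any 1 library left out but the siCtrl TRIzol library at 24 h, without which it was 78. The largest falls at 0 h were present at 24 h for Akirin1 (-1.32), Prelid3b (-1.52) and Ccn3 (-3.49), and the rises for F2r (1.25), Taldo1 (0.85) and Crabp2 (1.36). Fam131b was an exception, with -1.14 at 0 h and 0.07 at 24 h, a difference of 1.22 (SE 0.17, n = 3 per group, edgeR adjusted p = 0.00123). Tgfb3, at 0.48 and -0.16, differed by -0.64 (SE 0.11, n = 3 per group, edgeR adjusted p = 0.00843). Bmf (0.33 at 24 h) and Alcam (0.05 at 24 h) did not pass the threshold at 24 h. In neither gene did the effect differ between the times past the threshold (edgeR interaction test, adjusted p = 0.0844 for Bmf and 0.0518 for Alcam).

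The second siRNA was compared at the same time point. siSMYD3#2 changed 84 genes against the same siCtrl libraries (0.531%), and siSMYD3#1 and siSMYD3#2 differed from each other in 185 genes (1.17%), 60 higher and 125 lower with siSMYD3#1. With any 1 library of the groups compared left out, these counts were 30 to 59 and 66 to 127. Both siRNAs were compared with the same controls, so only their own values are set side by side. Among the 135 genes lowered by siSMYD3#1 the median log2 fold change with siSMYD3#2 was -0.10, and among the 91 raised genes it was 0.40. For the falls, Morn4 was at -1.52 with siSMYD3#1 and -0.12 with siSMYD3#2, Prelid3b at -1.44 and 0.01, Akirin1 at -1.39 and -0.05, Arhgap19 at -1.28 and 0.15, and Nid1 at -0.86 and 0.11. In all 5 genes the siRNAs differed past the threshold (edgeR adjusted p from 2.5e-06 to 0.0011). Nckap1l was at -1.47 and -1.41, and Nap1l2 at -1.19 and -0.95, with no difference past the threshold between the siRNAs (-0.05, SE 0.24, and -0.24, SE 0.22). Of the rises, Taldo1 was at 1.07 and 1.14, F2r at 1.03 and 1.24, Oscp1 at 1.29 and 1.39, Ctxn1 at 1.01 and 0.94, and Pmepa1 at 0.81 and 0.74. Their differences between the siRNAs lay between -0.20 and 0.08 and did not pass the threshold, each with an SE of at most 0.19.

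**Figure D4:**
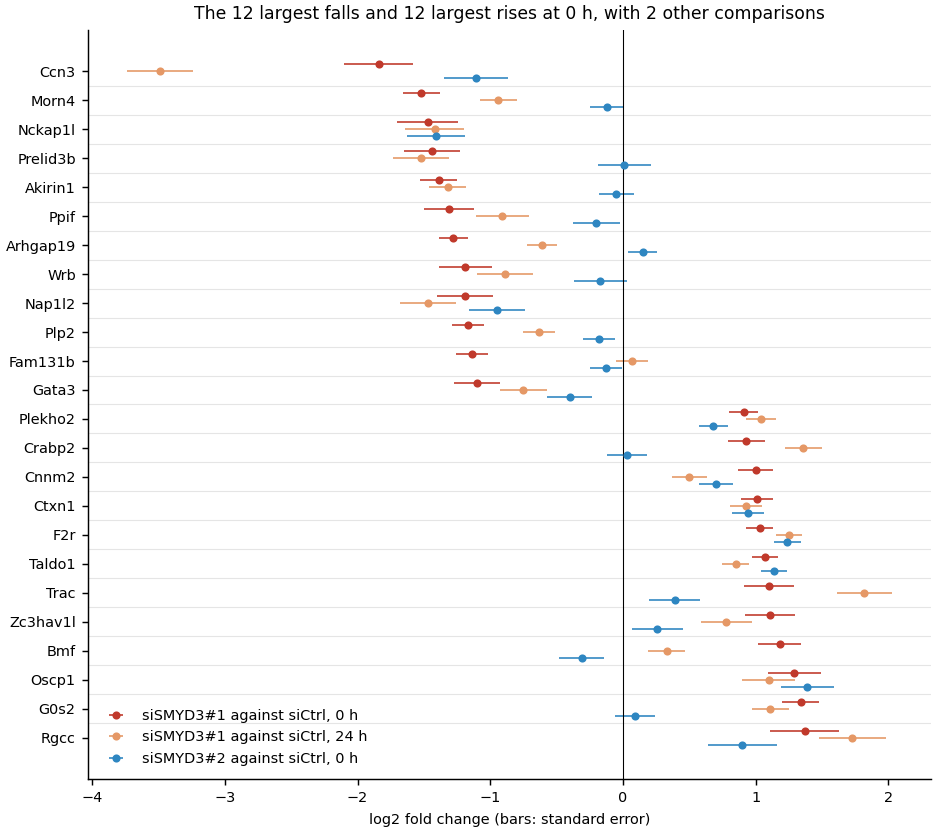
Log2 fold changes with their standard errors (bars) of the 12 largest falls and the 12 largest rises at 0 h, for siSMYD3#1 against siCtrl at 0 h (red), siSMYD3#1 against siCtrl at 24 h (orange) and siSMYD3#2 against siCtrl at 0 h (blue), the last of which uses the same siCtrl libraries as the first. The orange points lie on the side of the red ones in every gene but Fam131b, and the blue points of Morn4, Prelid3b, Akirin1 and Arhgap19 lie between -0.12 and 0.15.

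The changed genes were also described by sequence, as matches of their 3′ UTR to the seeds of the siRNA strands printed above. A match is the reverse complement of seed bases 2 to 8 in the longest annotated 3′ UTR of a gene, and 12557 of the tested genes had one annotated, among them 134 of the lowered and 90 of the raised genes. The siSMYD3#1 guide seed (match ACCCCAA) was present in 17.2% of the lowered, 7.78% of the raised and 10% of the genes not called. The search was then extended to the sense strands, a choice made after the data were seen. The siSMYD3#1 sense seed (match AGCTGTG) was present in 90 of the 134 lowered genes (67.2%), in 12.2% of the raised genes and in 21.3% of the genes not called. Lowered genes had longer 3′ UTRs (median 2204 bases against 1172 in the genes not called). Per kilobase of 3′ UTR they held 0.413 matches against 0.164, and the part of length was not tested. Ranked by the difference in share between lowered genes and genes not called, AGCTGTG came first of all 16384 sequences of 7 bases, and GCTGTGA, which pairs with bases 1 to 7 of the same strand, second. The seeds of siSMYD3#2 gave 18.7% of lowered genes against 13.6% of genes not called for the guide, and 8.96% against 7.05% for the sense strand.

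Genes with more matches lay lower. The 9827 genes with 0 matches to the siSMYD3#1 sense seed had a median log2 fold change of 0.012, and 0.448% of them were lowered. The 2137 genes with 1 match had a median of -0.051 with 2.62% lowered, and the 593 genes with 2 or more a median of -0.097 with 5.73% lowered. At 24 h, in other libraries, the medians were 0.026, -0.035 and -0.104, with 2.79%, 5.43% and 9.61% lowered. With siSMYD3#2 at 0 h the medians of the same classes were -0.003, -0.006 and -0.002, with 0.234%, 0.374% and 0.506% lowered. The median 3′ UTR length of the classes was 944, 2068 and 3641 bases. Within classes of 3′ UTR length the lowered share was higher with a match than without. It was 3.85% and 0.273% below 1000 bases, 2.88% and 0.397% from 1000 to below 2000 bases, 2.96% and 1.03% from there to below 4000 bases, and 3.96% and 0.463% from 4000 bases. The median log2 fold change without a match went from 0.02 below 1000 bases to -0.025 from 4000 bases. With a match it went from -0.051 to -0.087. These shares and medians are descriptions without a test, and the part of the matches in the changes was not tested.

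**Figure D5:**
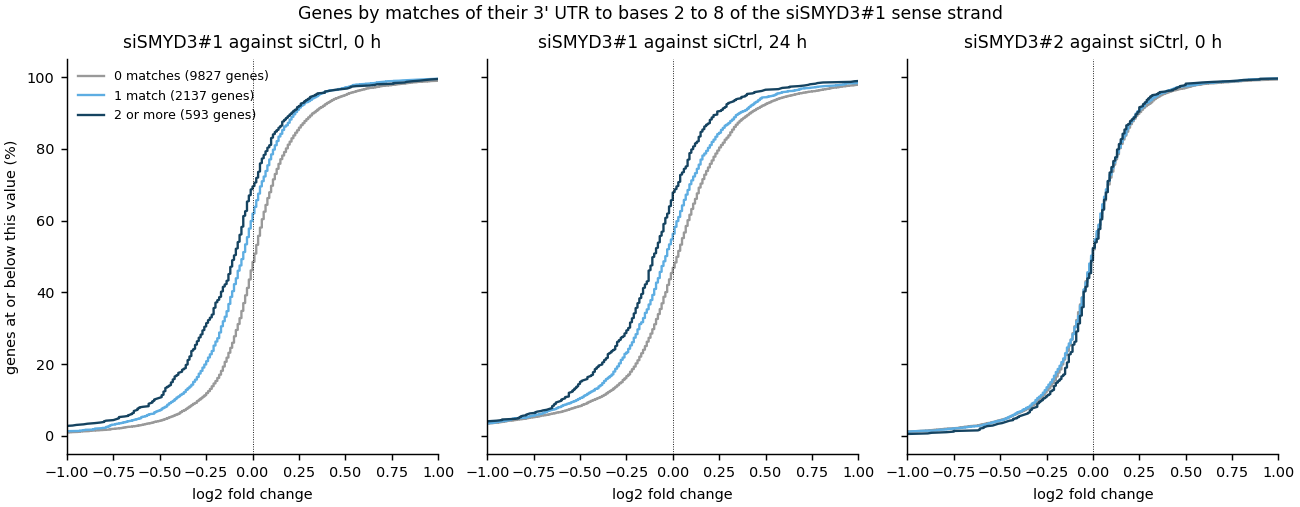
Cumulative share of genes (y axis, percent) by log2 fold change (x axis) for 9827 genes with 0 matches, 2137 with 1 match and 593 with 2 or more matches of the 3′ UTR to bases 2 to 8 of the siSMYD3#1 sense strand, in 3 comparisons. The curves are ordered to the left by number of matches for siSMYD3#1 at 0 h (medians 0.012, -0.051 and -0.097) and at 24 h, and lie on each other for siSMYD3#2 at 0 h (medians from -0.006 to -0.002).

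Matches in Morn4, Akirin1, Ppif, Arhgap19 and Plp2, of the 12 largest falls, and in Nid1, of the matrix list, are shown. They let the pairing be read against the sense strand. Each line gives the mRNA strand of up to 30 bases around the match, with the match in capitals, from the GRCm38 genome with GENCODE M21 transcripts.

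Morn4 3′ UTR (match at chr19:42075017-42075023, minus strand): gtggaaattatAGCTGTGtgcctctattta

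Akirin1 3′ UTR (first of 2 matches, at chr4:123736638-123736644, minus strand): atccactaaacAGCTGTGccctactgtgat

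Ppif 3′ UTR (match at chr14:25699983-25699989, plus strand): catcgaaacaaAGCTGTGacactcatggca

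Arhgap19 3′ UTR (first of 3 matches, at chr19:41770003-41770009, minus strand): gatgtctctgaAGCTGTGcgtctgtggaag

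Plp2 3′ UTR (match at chrX:7667982-7667988, minus strand): tgtgtggggtgAGCTGTGaagggctaaata

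Nid1 3′ UTR (match at chr13:13512129-13512135, plus strand): gtaaattgttaAGCTGTGgaaaccactgaa

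Wrb, another of the 12 largest falls, and Jam2 and Alcam, named from the lists, also held 1 match each. The matches did not cover the list. Prelid3b, Fam131b, Gata3, Ccn3, Nckap1l, Nap1l2 and Tnrc6a had 0 matches in the 3′ UTR searched and were lowered, and F2r, Bmf, Plekho2, Col5a1 and Lox had 1 and were raised.

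A corresponding search was made for the strands of siCtrl, which the control cells and not the siSMYD3#1 cells received. The siCtrl sense seed (match TCGGAGA) was present in 20 of the 90 raised genes (22.2%), in 0.746% of the lowered and in 1.99% of the genes not called. That share depended on which genes were called. It was 33.3% to 51.6% of the raised genes with any 1 library left out, and 9.09% when only the siCtrl and siSMYD3#1 libraries at 0 h were fitted. It ranked second among the 16384 sequences for the raised genes, behind CGGAGAA, which pairs with bases 1 to 7 of the siCtrl sense strand. The 261 genes with 1 such match had a median log2 fold change of 0.11 at 0 h, and 7.28% of them were raised against 0.57% of the genes with 0 matches. The values of the same genes were 6.13% against 0.277% for siSMYD3#2 against the same siCtrl libraries, and 13.4% against 3.38% for siSMYD3#1 at 24 h. Between siSMYD3#1 and siSMYD3#2, where no siCtrl library enters, 0.383% of the genes with 1 match and 0.472% of those without were higher with siSMYD3#1. Among the 12 largest rises, Taldo1, Ctxn1, Oscp1, Cnnm2 and Rgcc held 1 match each. F2r, G0s2, Bmf, Crabp2, Zc3hav1l and Plekho2 held 0, and Trac had no 3′ UTR annotated. 3 of the matches are shown in the same way.

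Taldo1 3′ UTR (match at chr7:141402892-141402898, plus strand): ttttttagtgaTCGGAGAagggatggatca

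Ctxn1 3′ UTR (match at chr8:4258264-4258270, minus strand): gttgagggcgtTCGGAGAagtccagtcctt

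Cnnm2 3′ UTR (match at chr19:46878244-46878250, plus strand): ctttcaagaatTCGGAGAcaaacttcttcc

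The siCtrl guide seed was present in 1.11% of the raised, 4.48% of the lowered and 2.94% of the genes not called. The rises include genes whose 3′ UTR holds the seed match of the control duplex, and as for the falls, the part of these matches in the changes was not tested.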

How the data were processed

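Poly(A) RNA of C2C12 cells was sequenced as paired-end reads from TruSeq Stranded mRNA libraries. Per the labels and the submitters' processing notes, the authors checked reads with FastQC 0.11.5, aligned them to GRCm38 with HISAT2 2.1.0 and counted them per gene with featureCounts of Subread 1.6.3. The deposited values are raw counts per gene, without normalization or filtering, for 55341 genes in each library. The strand setting, the handling of reads with several alignments and the annotation release are not given in the sources used here. Their own tests used DESeq2 with terms for condition and extraction, at an adjusted p under 0.01. Symbols, coordinates, exons and 3′ UTRs were taken here from GENCODE M21, which holds 54495 of the genes. 0 pairs of libraries held identical values.

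Counts were fitted with edgeR 4.0.16 in R 4.3.3 (filterByExpr, TMM, robust quasi-likelihood test) over all 18 siRNA libraries in 6 groups, with a term for extraction method, which shares the estimate of the spread, and p-values were adjusted by Benjamini-Hochberg over 15820 genes (threshold 0.01, common dispersion 0.0159). Standard errors were obtained from each log2 fold change and its F statistic (change over root F). DESeq2 1.42.0, DESeq2 size factors, other filters on low counts, thresholds, covariates, fewer libraries in the fit, and leaving out each library were the alternatives, and the procedure was tested on simulated counts. Log2 ratios of single libraries used a pseudocount of 0.5 CPM. Groups come from the labels. The study's sample sheet numbers the replicates, and same-numbered libraries of siCtrl and siSMYD3#1 had correlated deviations from their group means (0.849, 0.603 and 0.553). Differently numbered NucleoSpin libraries correlated nearly as well (0.549 and 0.464), and over the NucleoSpin libraries alone the same-numbered correlation was 0.101. The number was used as a block in an alternative fit. No block is in the main fit.

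Genes are named by a rule: the SMYD family, the myogenic transcription factors, the 12 largest rises and 12 largest falls past the threshold with a mean of at least 100 counts whose siSMYD3#1 libraries all lay on the same side of the siCtrl libraries of their extraction, and in each list up to 4 genes past the threshold by the same conditions. Other genes are named where they come nearest the threshold in their list, are the 1 called gene of a marker list or belong to a family described, and these were named after their values were seen. Exons of other genes overlap 15 of the 60 genes named, 3 on the same and 13 on the opposite strand. The comparison and the gene lists were chosen with earlier results of these data known. Total counts of 19381957 to 60398170 per library limit the precision of genes of low level, and each group has 3 libraries. The siSMYD3#2 libraries at 24 h entered the fit only, and the overexpression libraries were not used.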

Additional observations from a re-analysis of the deposited data

Results flagged for a closer look

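Of the genes named, the effect of siSMYD3#1 differed between 24 h and 0 h in Fam131b and Tgfb3, by an interaction test in edgeR. Fam131b was lowered at 0 h, at 48.3, 41.3 and 46.0 CPM with siCtrl against 19.5, 19.5 and 22.5 CPM with siSMYD3#1, and at 24 h stood at 27.3, 24.1 and 25.1 CPM against 24.9, 23.3 and 33.0 CPM, a difference of the log2 effects of 1.22 (SE 0.17, n = 3 per group, edgeR adjusted p = 0.00123). Tgfb3 was raised at 0 h, at 50.2, 40 and 47.3 against 73.2, 57.8 and 61.2 CPM, and at 24 h stood at 91.9, 74.0 and 73.1 against 80.9, 67.5 and 65.3 CPM, a difference of -0.64 (SE 0.11, n = 3 per group, edgeR adjusted p = 0.00843). In both genes the siCtrl level itself moved between the time points, down for Fam131b and up for Tgfb3. Time and the second transfection cannot be told apart here either.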

How the results depend on the processing

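The number of genes called at 0 h, 226, was 561 at an adjusted p under 0.05, 35 with a 2-fold minimum, 523 in DESeq2, 527 without a filter on low counts, 15 without extraction method, 462 in the NucleoSpin libraries alone, 992 with only the 2 groups in the fit, and 68 to 148 with 1 library left out. It was 190 with the replicate block (76 raised, 114 lowered), which among the named genes ended the calls of Itgb1 and Cald1. The 34 genes whose effect differed between 24 h and 0 h became 105, 141 (DESeq2), 277 (no filter), 2 (no extraction) and 160 (NucleoSpin), and 17 to 78 with 1 library left out. The 185 genes that differed between the siRNAs became 387, 28 (2-fold), 411, 468, 11, 423 and 381 in the order above, and 66 to 127. The 84 genes of siSMYD3#2 became 169, 11, 205, 208, 5 and 138, and 30 to 59. The share of lowered genes with a siSMYD3#1 guide match, 17.2%, was 42.5% with 6-base matches and 67.2% for the sense strand. The sense share of 67.2% was 89.6% with 6-base matches, 58.3% without a filter, 77.8% without extraction, 55.4% in NucleoSpin, 52.5% with 2 groups, and 60.5% to 83.8% with 1 library left out. The siCtrl sense share of raised genes, 22.2%, was 50.0% with 6-base matches, 13.9% at 0.05, 60.0% at 2-fold, 13.8% in DESeq2, 12.8% without a filter, 9.09% with 2 groups, 0% without extraction (of 6 genes), and 33.3% to 51.6% with 1 library left out. The cause of these changes was not tested. Smyd3 stayed from -0.24 to -0.10 and under the threshold. Of 938 values of 59 other named genes, 769 kept their status as called or not called, 162 lost the call and 7 gained it. Where a gene was called in the main or the alternative fit, 0 values reversed direction. Direction was not compared for genes called in neither.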

Other observations

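Further genes past the threshold, named here after their values were seen, had large or precise changes at 0 h and stand outside the lists above. Hipk3, a homeodomain-interacting protein kinase, fell from 165, 135 and 133 CPM with siCtrl to 79.4, 63.5 and 69.0 CPM with siSMYD3#1 (log2 fold change -1.03, SE 0.09, n = 3 per group, edgeR adjusted p = 3.98e-06), while siSMYD3#2 libraries stood at 151, 107 and 101 CPM. Cds2, a CDP-diacylglycerol synthase of phospholipid synthesis, fell from 113, 109 and 116 CPM to 60.7, 44.4 and 54.9 CPM (-1.09, SE 0.10, n = 3 per group, edgeR adjusted p = 3.98e-06), and its 3′ UTR held 9 matches to the siSMYD3#1 sense seed. Calm3, 1 of the genes that encode calmodulin, fell from 343, 417 and 462 CPM to 197, 183 and 204 CPM (-1.05, SE 0.13, n = 3 per group, edgeR adjusted p = 0.000189). In none of these genes did the groups overlap.

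Of the raised genes outside the lists, Lman1, a cargo receptor between the endoplasmic reticulum and the Golgi apparatus, was at 139, 137 and 139 CPM with siCtrl and at 201, 203 and 207 CPM with siSMYD3#1 (0.56, edgeR adjusted p = 0.000768), and at 203, 204 and 204 CPM with siSMYD3#2. Ganab, the alpha chain of glucosidase II, went from 111, 127 and 130 CPM to 191, 182 and 185 CPM (0.61, edgeR adjusted p = 0.000751), and P3h1, a prolyl hydroxylase of collagen, from 75.9, 67.8 and 75.2 CPM to 118, 89.3 and 97.6 CPM (0.47, edgeR adjusted p = 0.00509), with siSMYD3#2 at 182, 175 and 198 CPM for Ganab and at 75.8, 67.1 and 77.1 CPM for P3h1. These 3 genes were picked after the values were known, and nothing is read from them as a group.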
